A study of Mus musculus with 16 samples.

Results

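The genes described here are the 10 of bile acid synthesis and its control by the farnesoid X receptor (FXR) in mouse liver: Cyp7a1, Cyp8b1, Cyp27a1, Cyp7b1, Hsd3b7, Akr1d1, Baat, Slc27a5, Nr1h4 and Nr0b2. They were chosen by gene name from the deposited gene table. All 10 were found among its 23258 rows and all 10 passed the filter on low counts, which left 16830 genes. The study compared livers of C57BL/6 mice, wild type or with a liver knockout of miR-33, on a chow diet or a high-fat diet (HFD). Chow had 3 wild-type and 4 knockout libraries, and high-fat diet had 4 wild-type and 5 knockout libraries. Both genotypes share the strain, and no other allele, agent or treatment is named in the labels. The knockout is named only as one of the liver in the labels, while the name of the deposited table holds Alb-Cre, a Cre recombinase under the albumin promoter, which is active in hepatocytes. The sources used here do not give the sex, the age, the length of feeding or the hour of collection. The labels do not say that each library is a separate animal, and a p-value here weighs a difference against the spread of libraries, which may be in part technical.

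Bile acids are made from cholesterol in hepatocytes. In the classic pathway Cyp7a1 takes the first and rate-limiting step, Hsd3b7 and Akr1d1 remodel the sterol rings, Cyp8b1 directs the product to cholic acid and Cyp27a1 oxidises the side chain. In the alternative pathway Cyp27a1 acts first and Cyp7b1 follows, while Slc27a5 and Baat activate bile acids and join them to taurine or glycine. Bile acids bind the nuclear receptor FXR, encoded by Nr1h4, which induces Nr0b2 (the repressor SHP), and SHP lowers Cyp7a1 and Cyp8b1. miR-33 is a microRNA encoded in an intron of Srebf2, known to repress the cholesterol exporter Abca1.

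Library totals ran from 15888436 to 29469645 estimated counts, and the share of the ribosomal RNA gene CT010467.1 from 0.637% to 14.6%. On chow this share was 11.3% to 14.6%, apart from 2.54% in wild type library 3, and on high-fat diet 0.637% to 12.3%. The TMM factors, which adjust library totals, were 0.855 to 0.966 on chow and 1.02 to 1.18 on high-fat diet, without overlap. In a principal component analysis of all genes tested, chow wild type library 3 lay apart at -48.8 on the second component, and high-fat knockout library 1 lay apart at 50.2 on the third. The deleted sequence itself has no row in the table, so no value here checks the genotype labels. Hepatocyte markers were abundant in every library, with all 12 in the table and summed levels of 101734 to 114443 CPM (counts scaled to a common library size, with TMM factors) in wild type on chow and 105342 to 111556 in knockout on chow. With high-fat feeding the wild-type sums were 82934.6 to 102568 CPM and the knockout sums 78804.4 to 99782.1. The sample numbers in the titles form different series on chow and on high-fat diet, so diet and number series cannot be told apart. On chow all knockout numbers also come before all wild-type numbers, so genotype and number order cannot be told apart there. On high-fat diet the numbers of the genotypes are mixed.

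The seeds of both strands of miR-33 were compared with the 10 genes because microRNAs are known to act through seed matches in 3' UTRs. The mature sequences are from RefSeq on GRCm38.p6, with the seed (bases 2 to 8) in capitals, and lie at chr15:82198127-82198147 and chr15:82198167-82198188 on the plus strand.
mmu-miR-33-5p: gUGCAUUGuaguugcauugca
mmu-miR-33-3p: cAAUGUUUccacagugcaucac
Sites were sought in the longest annotated 3' UTR of each gene (GENCODE M21). Of the 10, only Cyp7b1 had a match to the miR-33-5p seed, a site of seed bases 2 to 7 followed by A, at position 71 of its 507-base 3' UTR and at chr3:18072380-18072386 (mm10, the gene lies on the minus strand). The site is in capitals.
Cyp7b1 site: actcccccaAATGCAAccgctact
None of the 10 had a match to the miR-33-3p seed. Among all genes with a 3' UTR, 15.4% had a site for miR-33-5p and 23.9% one for miR-33-3p, so 1 of 10 and 0 of 10 is not more than the background. A match is a description of letters and does not show that the site is used.

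The first comparison is of the diets within each genotype. In wild type, by edgeR's quasi-likelihood test, with Benjamini-Hochberg adjustment over all genes and a threshold of 0.05, 7 of the 10 fell on high-fat diet (Cyp8b1, Cyp27a1, Cyp7b1, Hsd3b7, Baat, Slc27a5 and Nr0b2) and 0 rose. Cyp7a1, Akr1d1 and Nr1h4 did not pass. In that comparison 29.4% of all genes passed, with 14.2% of all genes lower and 15.2% higher. The 10 genes had a median log2 fold change of -0.48, against -0.02 over all genes. In 6 of the 10 the groups did not overlap, as in 36% of all genes. In the knockout 4 of the 10 fell (Cyp8b1, Cyp27a1, Hsd3b7 and Slc27a5) and 1 rose (Akr1d1), with a median of -0.39. There 33.6% of all genes passed, 16.2% lower and 17.4% higher. In 4 of the 10 the groups did not overlap, as in 26.5% of all genes. Without both libraries that lay apart, 6 of the 10 passed as lower in wild type and 5 in the knockout.

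Markers of other cell types moved with the diet. Of the 12 hepatocyte markers 7 fell in wild type, with a median log2 fold change of -0.59, and in the knockout 5 fell and 1 rose, with a median of -0.44. Of the markers of Kupffer cells and macrophages 9 rose and 0 fell in wild type, and their summed level was 120 to 248.8 CPM on chow against 335 to 597 on high-fat diet. In the knockout 5 macrophage markers rose, with sums of 228 to 271 CPM on chow and 319 to 602 on high-fat diet. Stellate cell markers summed to 292 to 348 CPM on chow and 495 to 786 on high-fat diet in wild type, and to 299 to 445 and 503 to 604 in the knockout. Of these stellate markers 9 rose and 0 fell in wild type, and 7 rose and 1 fell in the knockout. Of the sinusoidal endothelial markers 5 rose and 0 fell in wild type, and 0 rose and 3 fell in the knockout. Cholangiocyte markers summed to 60.8 to 74.1 CPM on chow and 135 to 275 on high-fat diet in wild type. In the knockout these sums were 55.6 to 65.2 and 105 to 165. Between genotypes none of these markers passed. On chow the knockout log2 fold change was above 0 for 11 of 12 macrophage, 12 of 12 stellate and 10 of 10 endothelial markers. On high-fat diet it was above 0 for 2 markers of each of these lists. For hepatocyte markers these counts, chow first, were 4 and 6 of 12, and for cholangiocyte markers 3 and 1 of 8. Endothelial sums on chow were 205 to 255 CPM in wild type and 272 to 318 in the knockout. The part of these shifts in the results on the 10 genes was not tested. In bulk tissue, fewer cells of a type and less RNA per cell cannot be told apart.

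**Figure D1:**
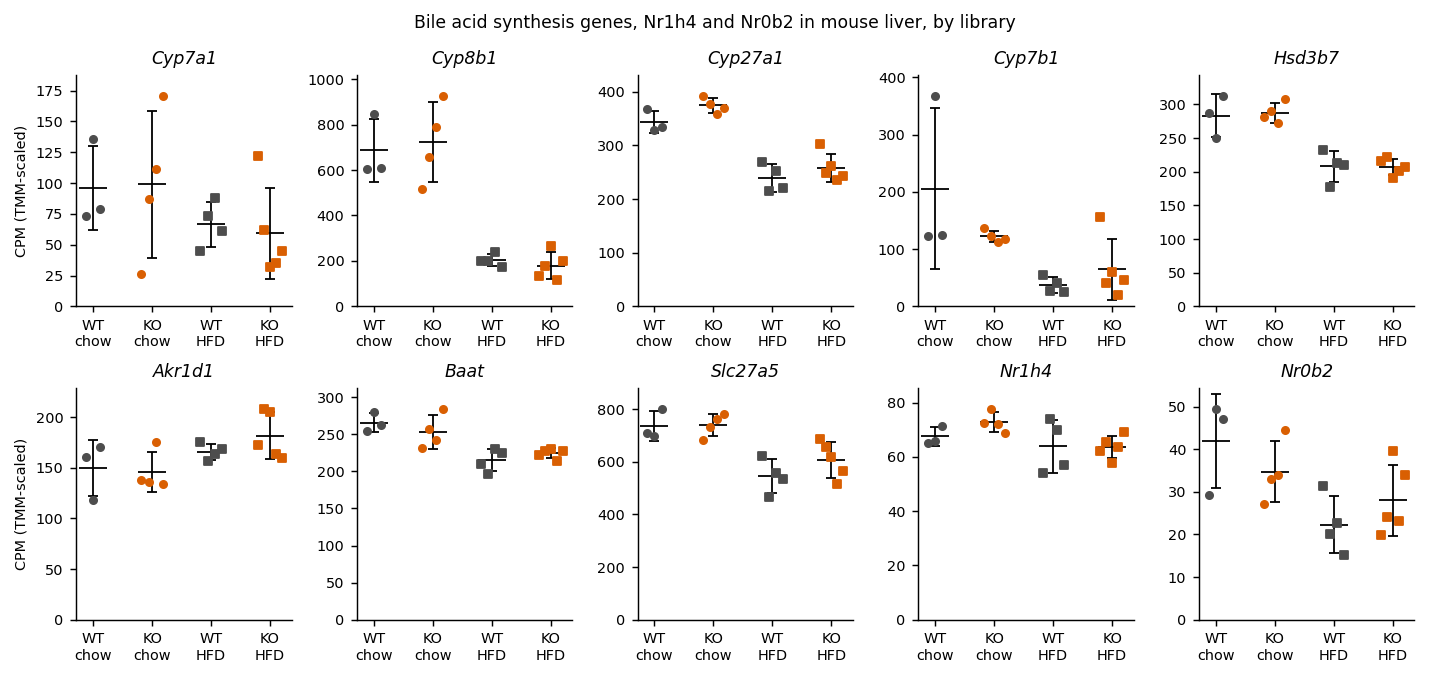
Level of each of the 10 genes in CPM (TMM-scaled, linear axis from 0) by group, with 1 point per library and a bar at the group mean with its SD. Cyp8b1 separates the diets in both genotypes, with chow libraries from 519 to 927 CPM and high-fat libraries from 115 to 267 CPM.

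Cyp8b1 (chr9:121914356-121916305, mm10, minus strand, 1 exon) encodes the sterol hydroxylase that sets the share of cholic acid in the bile acid pool. Its wild-type levels were 604, 846 and 608 CPM on chow and 201, 198, 237 and 175 CPM on high-fat diet. Those of the knockout were 519, 656, 790 and 927 CPM on chow and 135, 179, 267, 115 and 198 CPM on high-fat diet. Every chow library lay above every high-fat library in both genotypes. In edgeR's test on high-fat diet Cyp8b1 fell by 1.76 on the log2 scale in wild type (SE 0.25, adjusted p = 1.5e-04), which is 3.38-fold lower. In the knockout it fell by 2.02 (SE 0.22, adjusted p = 1.3e-05), which is 4.04-fold lower. These calls held in 25 of 25 alternatives in each genotype, some of which left out a library of neither group compared.

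Of the 10 genes Cyp8b1 had the highest mean level per exon length in wild type on chow, with 352 ± 71.3 RPKM (CPM per kilobase of exons, SD, n = 3), and in knockout on high-fat diet it stood below Slc27a5, Cyp27a1 and Baat at 91.7 ± 30.5 (n = 5). In wild type on high-fat diet it stood below the same genes at 104 ± 13.2 (n = 4). Its promoter from RefSeq is shown because Cyp8b1 had the largest diet change of the 10 in the knockout and the window holds an element known to bind the hepatocyte nuclear factor HNF4A, encoded by Hnf4a. It spans 250 bases before to 50 after the gene's start at chr9:121916256-121916555 (GRCm38.p6, minus strand), with the HNF4 element CAAAGTCCA and the TATAAA box in capitals.
Cyp8b1 promoter: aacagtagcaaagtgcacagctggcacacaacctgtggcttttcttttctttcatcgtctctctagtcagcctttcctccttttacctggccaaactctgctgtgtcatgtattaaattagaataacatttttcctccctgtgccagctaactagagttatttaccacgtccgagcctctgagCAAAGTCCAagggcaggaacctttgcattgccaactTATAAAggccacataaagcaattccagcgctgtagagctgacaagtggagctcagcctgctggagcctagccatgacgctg
CAAAGTCCA, searched on both strands, began at -67 and occurs in 0.475% of the 32851 promoters of the table. It was not found in the promoters held for Cyp27a1, Hsd3b7, Akr1d1, Nr1h4 and Nr0b2, and of these Cyp27a1 and Hsd3b7 also fell in both genotypes. The search was for this exact string of letters, so other forms of the element were not counted. TATAAA began at -31 and occurs in 13.6%. Hnf4a itself had 536 ± 37 CPM in wild type on chow (SD, n = 3) and 291 ± 30.6 on high-fat diet (n = 4). In edgeR's test it fell by 0.88 on the log2 scale in wild type (SE 0.11, adjusted p = 1.2e-05) and by 0.98 in the knockout (SE 0.09). Binding of HNF4A was not measured, and its part in the level of Cyp8b1 was not tested.

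Cyp7a1 (chr4:6265612-6275633, mm10, minus strand), the rate-limiting enzyme, varied more between libraries of a group than between groups. Its wild-type levels were 73.3, 136 and 79.3 CPM on chow and 44.9, 73.1, 87.6 and 61.1 CPM on high-fat diet. The knockout had 26.5, 87.3, 111 and 171 CPM on chow and 122, 62.2, 32.1, 34.9 and 44.7 CPM on high-fat diet. The groups overlapped in every comparison, and knockout on chow covered the whole range of the other groups. The log2 fold change on high-fat diet was -0.53 ± 0.57 (SE) in wild type and -0.75 ± 0.50 in the knockout, with adjusted p = 0.53 and 0.27 in edgeR's test. Without chow wild type library 2 the wild-type value was -0.19. The knockout value was -1.17 without high-fat library 1 and -0.34 without chow library 4. Cyp7a1 is known to follow the hour of feeding, and genes of the clock list passed the diet test, as given further on. The part of collection time was not tested.

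Cyp7b1 (chr3:18071950-18243338, mm10, minus strand), the hydroxylase of the alternative pathway, had 123, 368 and 125 CPM in wild type on chow and 54.8, 26.1, 41.4 and 25.7 CPM on high-fat diet. Knockout levels were 136, 123, 113 and 118 CPM on chow and 157, 41.4, 60.9, 20.3 and 46.1 CPM on high-fat diet. Chow wild type library 2 and high-fat knockout library 1 lay far above the rest of their groups. The wild-type groups did not overlap, while the knockout groups overlapped only through high-fat library 1. In edgeR's test Cyp7b1 fell by 2.47 on the log2 scale in wild type (SE 0.60, adjusted p = 0.0083). Without chow wild type library 2 the log2 fold change was -1.75 and did not pass (adjusted p = 0.054). In the knockout the log2 fold change was -0.92 ± 0.52 (adjusted p = 0.19). Without high-fat library 1 it was -1.52 and passed, with adjusted p = 0.014.

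Cyp27a1 (chr1:74713574-74737892, mm10, plus strand), the mitochondrial side chain hydroxylase, had 368, 329 and 334 CPM in wild type on chow and 268, 215, 252 and 220 CPM on high-fat diet. Knockout levels were 393, 377, 359 and 369 CPM on chow and 303, 249.3, 261, 235 and 242 CPM on high-fat diet. The diets did not overlap in either genotype. It fell by 0.52 on the log2 scale in wild type (SE 0.10, adjusted p = 5.3e-04, edgeR) and by 0.54 in the knockout (SE 0.08, adjusted p = 1.1e-04), and both calls held in 25 of 25 alternatives.

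The ring enzymes went different ways. Hsd3b7 (chr7:127800604-127803802, mm10, plus strand), a steroid dehydrogenase, had 288, 250 and 313 CPM in wild type on chow and 232, 177, 214 and 209.5 CPM on high-fat diet. Knockout livers had 281, 290, 273 and 308 CPM on chow and 217, 222, 191, 201 and 207 CPM on high-fat diet. The diets did not overlap in either genotype. Hsd3b7 fell by 0.45 on the log2 scale in wild type (SE 0.09, adjusted p = 0.0018, edgeR) and by 0.47 in the knockout (SE 0.08, adjusted p = 3.1e-04), in 25 of 25 alternatives each. It overlaps Gm49388 on the same strand and 9430064I24Rik on the other, so its counts may include reads of those genes.

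Akr1d1 (chr6:37530173-37568815, mm10, plus strand), the reductase that saturates the first sterol ring, was the 1 gene of the 10 that rose. In the knockout it had 138, 136, 175 and 134 CPM on chow and 173, 208, 205, 164 and 160 CPM on high-fat diet, and chow library 3 lay among the high-fat libraries. Wild-type livers had 161, 119 and 170 CPM on chow and 175, 157, 164 and 169 CPM on high-fat diet, and these groups overlapped. In edgeR's test the log2 fold change was 0.32 ± 0.11 in the knockout (SE, adjusted p = 0.034) and 0.15 ± 0.13 in wild type (adjusted p = 0.41). The rise did not pass in 5 fits that each left out 1 knockout library (chow 1, 2 or 4, high-fat 2 or 3), with adjusted p from 0.085 to 0.096. The pseudogene Gm7463 overlaps Akr1d1.

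The promoter of Akr1d1 is shown because this gene alone of the 10 passed as higher on high-fat diet, and only in the knockout. It lies at chr6:37529923-37530222 (GRCm38.p6, plus strand), with matches to the nuclear receptor hexamer AGGTCA, here on the opposite strand as TGACCT, in capitals.
Akr1d1 promoter: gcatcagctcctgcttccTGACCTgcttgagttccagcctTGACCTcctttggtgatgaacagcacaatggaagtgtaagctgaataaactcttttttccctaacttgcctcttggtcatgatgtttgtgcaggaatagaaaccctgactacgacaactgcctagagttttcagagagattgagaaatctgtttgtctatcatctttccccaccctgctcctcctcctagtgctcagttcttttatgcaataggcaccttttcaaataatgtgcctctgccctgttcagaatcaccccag
The matches began at -232 and -210, and 16.3% of all promoters of the table hold at least 1 on either strand. The RefSeq table holds promoters for 6 of the 10 genes (Cyp8b1, Cyp27a1, Hsd3b7, Akr1d1, Nr1h4 and Nr0b2), that of Nr1h4 at a start inside the annotated gene. The hexamer was also found in that of Nr1h4, at -214 on the opposite strand, and TATAAA in that of Nr0b2 at -28. Binding to these matches was not measured, and their part in the levels of the genes was not tested.

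The conjugating enzymes were lower on high-fat diet in wild type. Slc27a5 (chr7:12988346-12998192, mm10, minus strand), the bile acid coenzyme A ligase, had 710, 698 and 801 CPM in wild type on chow and 623, 466, 557 and 534 CPM on high-fat diet. Knockout livers had 684.5, 731, 763 and 780 CPM on chow and 685, 656, 618, 514 and 566 CPM on high-fat diet. The wild-type groups did not overlap, and in the knockout high-fat library 1 lay level with chow library 1. Slc27a5 fell by 0.43 on the log2 scale in wild type (SE 0.11, adjusted p = 0.0052, edgeR) in 25 of 25 alternatives. In the knockout it fell by 0.28 (SE 0.09, adjusted p = 0.027), a call lost in 4 fits that each left out 1 knockout library (chow 3 or 4, high-fat 4 or 5), with adjusted p from 0.060 to 0.071.

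Baat (chr4:49489422-49506557, mm10, minus strand), which joins the activated bile acid to an amino acid, had 254, 280 and 263 CPM in wild type on chow and 211, 197, 230 and 225 CPM on high-fat diet. The knockout had 231, 257, 242 and 284 CPM on chow and 222, 228, 231, 213 and 227 CPM on high-fat diet. Chow lay above high-fat diet in both genotypes without overlap, though in the knockout only narrowly. Baat fell by 0.30 on the log2 scale in wild type (SE 0.08, adjusted p = 0.0085, edgeR) in 25 of 25 alternatives. Its log2 fold change in the knockout was -0.18 ± 0.07 (adjusted p = 0.060), and without chow knockout library 1 it was -0.22 and passed, with adjusted p = 0.036.

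**Figure D2:**
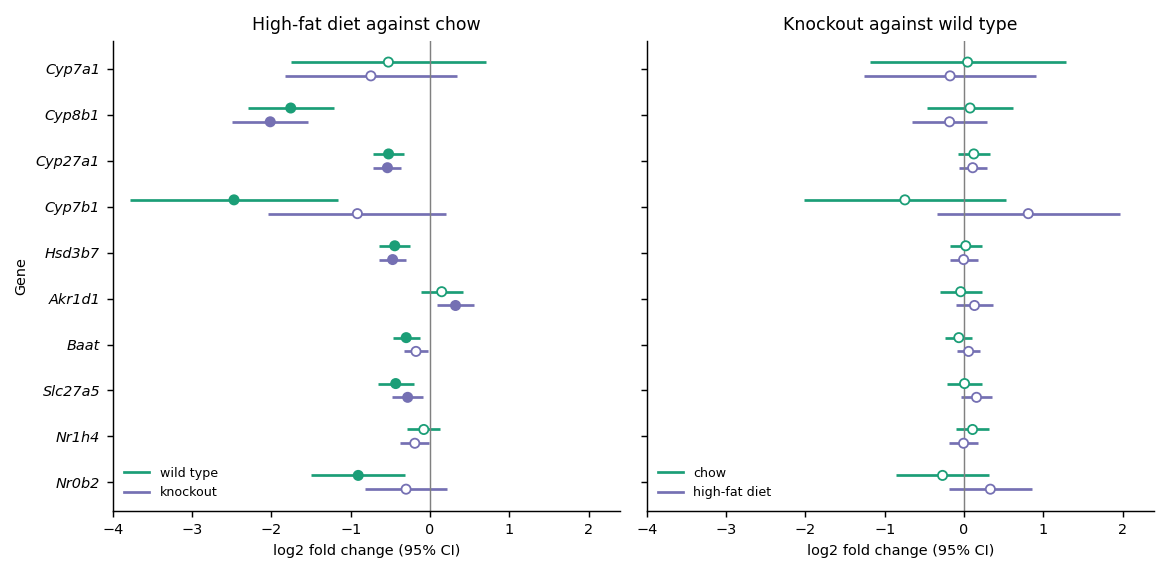
Log2 fold changes of the 10 genes with 95% confidence intervals from edgeR, for the diet within each genotype and for knockout against wild type on each diet. Cyp8b1 lies farthest from 0 in the knockout diet comparison at -2.02, and the intervals of the knockout comparisons all include 0.

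Nr1h4 (chr10:89454234-89533585, mm10, minus strand), which encodes FXR, had 65.1, 65.9 and 71.5 CPM in wild type on chow and 54.2, 74.1, 70.0 and 57.2 CPM on high-fat diet. Knockout livers had 72.4, 77.7, 72.0 and 68.9 CPM on chow and 62.2, 65.3, 57.9, 63.7 and 69.0 CPM on high-fat diet. The groups overlapped in both genotypes, those of the knockout only through high-fat library 5 and chow library 4. Its log2 fold changes were -0.08 ± 0.10 in wild type (adjusted p = 0.58, edgeR) and -0.19 ± 0.09 in the knockout (adjusted p = 0.091).

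Nr0b2 (chr4:133553376-133556536, mm10, plus strand), which encodes SHP, had 29.2, 49.4 and 47.2 CPM in wild type on chow and 31.3, 20.1, 22.6 and 15.2 CPM on high-fat diet. The knockout had 27.2, 33, 34 and 44.4 CPM on chow and 19.8, 24, 39.6, 23.1 and 33.9 CPM on high-fat diet. The groups overlapped in both genotypes. Nr0b2 fell by 0.91 on the log2 scale in wild type (SE 0.28, adjusted p = 0.024, edgeR), a call lost in 4 fits that each left out 1 wild-type library (chow 2 or 3, high-fat 2 or 4) and in the fit without both libraries that lay apart. Adjusted p was 0.061 to 0.099 in these 5 fits. In the knockout its log2 fold change was -0.30 ± 0.24 (adjusted p = 0.36), and -0.46 to -0.16 without single libraries, the ends being those without high-fat library 3 and without chow library 4. Without high-fat library 1 it was -0.18.

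Knockout of miR-33 changed none of the 10 genes on either diet past the threshold. On high-fat diet 0 of 10 passed in edgeR's test, against 0.00594% of all genes, and on chow 0 of 10, against 0.00594% of all genes. At an unadjusted p under 0.05 there were also 0 of 10 on both diets, against 3.81% of all genes on high-fat diet and 5.95% on chow. DESeq2 and limma voom called 0 of 10 on both diets as well. The groups did not overlap in 0 of 10 on high-fat diet, against 1.24% of all genes, and in 0 of 10 on chow, against 5.62%.

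How large a change the data allow differed between genes. For Cyp27a1, Hsd3b7, Akr1d1, Baat, Slc27a5 and Nr1h4 the 95% intervals of the knockout fold on both diets lay between 0.808 and 1.29, both ends being those of Akr1d1. For Cyp8b1 the interval was 0.635 to 1.22 on high-fat diet and 0.725 to 1.53 on chow. Cyp7a1 was less well determined, with 0.418 to 1.88 on high-fat diet and 0.438 to 2.43 on chow. Its log2 fold changes of -0.18 and 0.04 ran from -0.62 to -0.02 and from -0.36 to 0.38 without single libraries. These ends were reached without high-fat knockout library 1, high-fat wild type library 3, chow knockout library 4 and chow wild type library 2. The log2 fold change of Cyp7b1, the gene with the miR-33-5p seed match, was 0.81 ± 0.53 (SE) with high-fat feeding and -0.75 ± 0.58 with chow. Its fold interval was 0.788 to 3.90 on high-fat diet and 0.247 to 1.44 on chow. Without high-fat knockout library 1 the first log2 fold change was 0.19, and without chow wild type library 2 the second was -0.02. Nr0b2 had a log2 fold change of 0.33 ± 0.25 with high-fat feeding and -0.27 ± 0.28 with chow. The first was 0.18 without high-fat knockout library 3, 0.19 without high-fat wild type library 4 and 0.54 without high-fat wild type library 1. The second was -0.48 without chow wild type library 1, -0.41 without chow knockout library 4 and between -0.18 and -0.13 without chow wild type library 2, chow wild type library 3 or chow knockout library 1.

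The knockout effects on the diets were also compared with each other. None of the 10 genes passed that test in edgeR, where 0% of all genes passed. The largest difference was that of Cyp7b1 at 1.56 ± 0.79 on the log2 scale (unadjusted p = 0.0716, adjusted p = 0.79), followed by Nr0b2 at 0.60 ± 0.37 (adjusted p = 0.83). The difference of Cyp7b1 was 0.83 without chow wild type library 2 and 0.94 without high-fat knockout library 1. At an unadjusted p under 0.05 stood 0 of the 10 and 6.60% of all genes, and DESeq2 and limma voom also called 0 of the 10. The diet comparisons in the genotypes and the knockout comparisons on the diets share their groups of libraries and are not independent of each other. Calls in 1 genotype alone (Cyp7b1, Baat, Nr0b2, Akr1d1) therefore do not show a difference between the genotypes.

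Ratios within a library do not depend on its scaling. Cyp8b1 over Cyp7a1, the enzyme of cholic acid over the first step, was 8.23, 6.24 and 7.66 in wild type on chow and 4.48, 2.71, 2.71 and 2.86 on high-fat diet. In the knockout it was 19.6, 7.52, 7.09 and 5.42 on chow and 1.1, 2.88, 8.31, 3.29 and 4.44 on high-fat diet. The wild-type groups did not overlap and those of the knockout did. The difference of the mean log2 ratios, high-fat minus chow, was -1.23 in wild type (two-sided exact permutation p = 0.0571, the smallest that 3 against 4 libraries allow) and -1.40 in the knockout (exact p = 0.0635). Adjusted over the 8 ratio tests by Benjamini-Hochberg, both exact tests had p = 0.169 and did not pass.

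Cyp7a1 over Cyp7b1, the first step of the classic over the second of the alternative pathway, was 0.59, 0.37 and 0.63 in wild type on chow and 0.82, 2.80, 2.11 and 2.38 on high-fat diet. In the knockout it was 0.19, 0.71, 0.99 and 1.45 on chow and 0.78, 1.5, 0.53, 1.72 and 0.97 on high-fat diet. The wild-type groups did not overlap, and the knockout groups overlapped widely. The difference of the mean log2 ratios, high-fat minus chow, was 1.83 in wild type (exact permutation p = 0.0571, adjusted p = 0.169) and 0.59 in the knockout (exact p = 0.429, adjusted p = 0.686). Between genotypes neither ratio passed. With 3 against 4 libraries the smallest possible exact permutation p is 0.0571. The tests on chow and those of diet in wild type therefore could not pass. For Cyp8b1 over Cyp7a1 the knockout minus wild type difference was 0.08 on high-fat diet and 0.24 on chow, with exact permutation p = 0.841 and 0.914. For Cyp7a1 over Cyp7b1 it was -0.88 and 0.36, with exact p = 0.111 and 0.686.

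**Figure D3:**
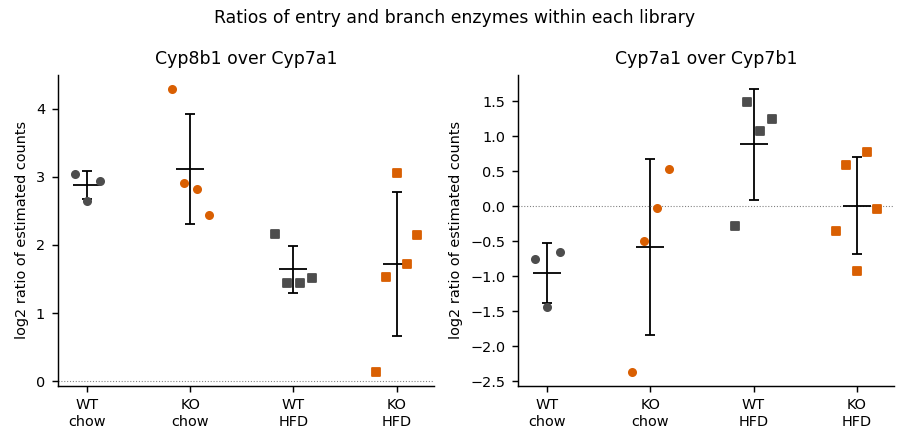
Log2 ratios of estimated counts within each library, Cyp8b1 over Cyp7a1 and Cyp7a1 over Cyp7b1, by group, with 1 point per library and a bar at the mean with its SD. In wild type the diets do not overlap for either ratio, and the knockout groups overlap for both.

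The order of the levels per exon length differed between the diets in each genotype. In wild type on chow Cyp8b1 was followed by Slc27a5 at 302 ± 23.1 RPKM (SD, n = 3), Cyp27a1 at 158 ± 9.63, Baat at 137 ± 6.72 and Hsd3b7 at 102 ± 11.6. Cyp7b1 at 94.9 ± 65.0, Akr1d1 at 51.9 ± 9.54, Nr0b2 at 37 ± 9.81, Nr1h4 at 29.3 ± 1.52 and Cyp7a1 at 23 ± 8.23 came after. Neighbours whose means lay within 1 SD were Cyp8b1 and Slc27a5, Hsd3b7 and Cyp7b1, Cyp7b1 and Akr1d1, Nr0b2 and Nr1h4, and Nr1h4 and Cyp7a1. In wild type on high-fat diet Slc27a5 led with 224 ± 26.7 RPKM (SD, n = 4). Baat at 111 ± 7.66, Cyp27a1 at 110 ± 11.7 and Cyp8b1 at 104 ± 13.2 followed, with means within 1 SD. Knockout on chow had Cyp8b1 first at 371 ± 90.1 RPKM (SD, n = 4), then Slc27a5 at 303 ± 17.2, also within 1 SD. In knockout on high-fat diet Slc27a5 led with 249.3 ± 28.2 RPKM (SD, n = 5), then Cyp27a1 at 119 ± 12.3 and Baat at 116 ± 3.49. Cyp7a1 was the lowest in every group, with 14.2 ± 8.89 RPKM in knockout on high-fat diet.

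The other genes around the pathway are given by lists, whose counts stand against the background of all genes. That background was 14.2% lower and 15.2% higher in wild type (median log2 fold change -0.02) and 16.2% lower and 17.4% higher in the knockout (median -0.01). Of 18 other enzymes of the pathway tested, 7 fell and 4 rose on high-fat diet in wild type (median log2 fold change -0.15), and in the knockout 7 fell and 2 rose (median -0.10). Slc27a2, an acyl coenzyme A synthetase of side chain shortening, fell by 0.83 in wild type (SE 0.10, adjusted p = 7.3e-06, edgeR) and by 0.88 in the knockout (SE 0.08). Acot8, a peroxisomal thioesterase, fell by 0.99 and 1.15 (SE 0.12 and 0.10), and Amacr, a racemase of the side chain, by 0.69 and 0.38 (SE 0.10 and 0.09). Cyp2c70, which makes the muricholic acids of mice, rose by 1.54 in wild type (SE 0.28, adjusted p = 0.0011) and by 2.26 in the knockout (SE 0.26, adjusted p = 1.8e-05). Its levels were 61.2 ± 31.1 CPM in wild type and 43.3 ± 9.11 in knockout on chow, and 178 ± 21.5 and 208 ± 20.2 on high-fat diet. The cholesterol hydroxylase Ch25h passed as higher in wild type, where all chow libraries together held 1 estimated count and the high-fat libraries 3 to 27 each, so no fold is given.

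Of 22 regulators of the pathway tested, 9 fell and 1 rose in wild type (median -0.22), against 14.2% and 15.2% of all genes. In the knockout 10 fell and 2 rose (median -0.24), against 16.2% and 17.4%. Beside Hnf4a, which is also among the hepatocyte markers, the constitutive androstane receptor gene Nr1i3 fell by 1.08 and 1.09 on the log2 scale (SE 0.14 and 0.13, edgeR). Rxra, the partner of FXR, fell by 0.56 and 0.59 (SE 0.09 and 0.08). Klb, the coreceptor of the intestinal hormone FGF15 on hepatocytes, fell by 0.87 and 0.99 (SE 0.15 and 0.13). With the smallest p in the knockout comparisons, the corepressor gene Ncor1 had a log2 fold change of 0.26 ± 0.08 on chow (unadjusted p = 0.00586, adjusted p = 0.77) and the deacetylase gene Sirt1 one of 0.50 ± 0.20 on high-fat diet (adjusted p = 1.00).

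Of 10 known targets of FXR other than Nr0b2 that were tested, 3 rose and 3 fell in each genotype, with medians of -0.30 in wild type and -0.15 in the knockout. Of all genes 29.4% passed in wild type and 33.6% in the knockout. Sdc1, a heparan sulfate proteoglycan, fell by 0.73 and 0.59 on the log2 scale (SE 0.11 and 0.10, edgeR), and Vldlr, a lipoprotein receptor, rose by 1.80 and 0.82 (SE 0.34 and 0.28). Abcb4, the phospholipid exporter of bile, fell by 0.49 and 0.63 (SE 0.11 and 0.09). Slc51b, a bile acid exporter subunit of the sinusoidal side, rose by 3.06 and 3.80 (SE 0.65 and 0.58), from few counts, with 0 to 3 per library and 5 in all in wild type on chow and 14 to 23 per library on high-fat diet. Of the bile acid transporters, 2 of 10 fell in wild type and 3 in the knockout, and 0 rose, while 29.4% and 33.6% of all genes passed in either direction. Slc10a1, the main uptake carrier, fell by 0.99 in both genotypes (SE 0.09 and 0.08, adjusted p = 7.3e-07 in wild type). The uptake carrier Slco1a1 fell by 3.90 in wild type (SE 1.11, adjusted p = 0.020) and had a log2 fold change of -2.19 ± 0.92 in the knockout (adjusted p = 0.086).

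Of 14 genes of the circadian clock and its output, 3 rose and 5 fell in wild type (median -0.27), and 4 rose and 4 fell in the knockout (median -0.12). In each genotype 6 of the 14 did not pass, and 29.4% and 33.6% of all genes passed. Nr1d1, a repressor of the clock, fell by 1.49 and 1.52 on the log2 scale (SE 0.24 and 0.21, edgeR), and Cry1, another repressor, rose by 1.01 and 1.02 (SE 0.19 and 0.16). Clock, the activator, fell by 0.78 in wild type (SE 0.10), and so did Nfil3, a repressor of clock output, by 1.22 (SE 0.24). The part of collection time in these values and in those of the 10 genes was not tested.

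Between genotypes the surrounding genes gave no calls. Of the 73 genes tested in these lists of enzymes, regulators, FXR targets, transporters and clock genes, 0 passed in edgeR, DESeq2 or limma voom in either knockout comparison or in the difference between diets. At an unadjusted p under 0.05 in edgeR there were 4 on high-fat diet, 3 on chow and 7 for the difference, beside 3.81%, 5.95% and 6.60% of all genes. Those on high-fat diet included Amacr, at a log2 fold change of 0.20 ± 0.09 (SE), and Ch25h, at -1.45 ± 0.54. The value of Ch25h rests on few estimated counts, 3 to 27 per library in wild type and 2 to 12 in the knockout. Those on chow included Dbp, a clock output factor, at -0.30 ± 0.12, and the clock repressor gene Per2.

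**Figure D4:**
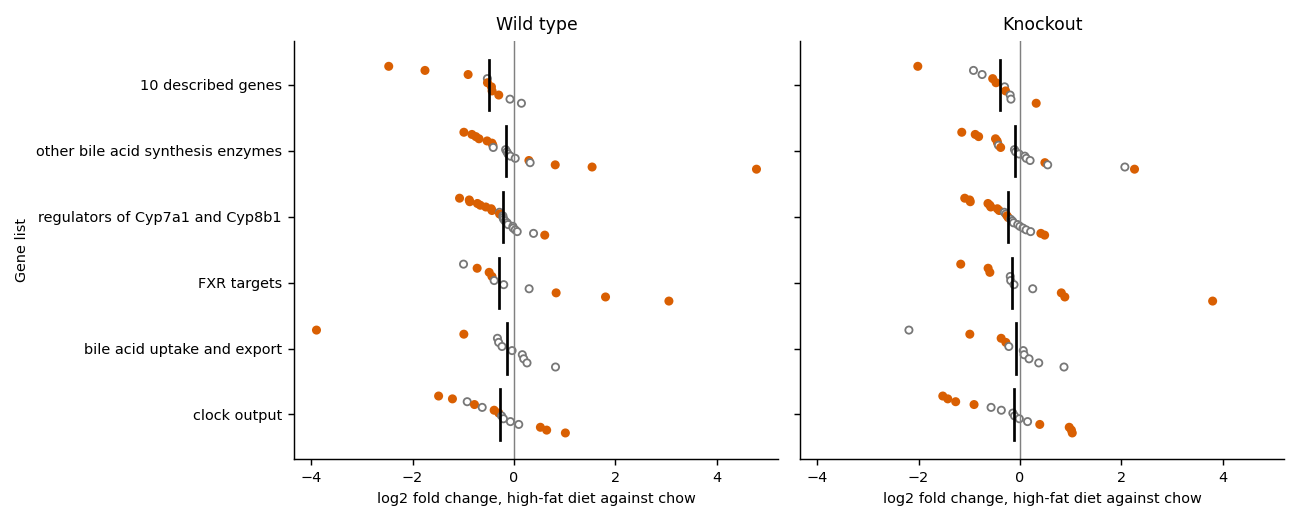
Log2 fold changes with diet (high-fat over chow) in each genotype for the 10 genes and for the lists of other enzymes, regulators, FXR targets, transporters, and clock genes, with 1 point per gene (filled where it passed in edgeR) and a bar at the median. The median of the 10 genes is -0.48 in wild type and -0.39 in the knockout, and that of the regulators -0.22 and -0.24.

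The genes whose pattern was most like that of a member were found by the root mean square difference of log2 CPM, centred on each gene's mean, over the 16 libraries. Predicted gene models, Rik genes and clone-named genes were left out of this search. All points share these libraries, and the measure is a description. For Cyp8b1, whose own spread about its mean was 1.00, the nearest were Lhpp at 0.318, Chrna2 at 0.349 and Nlrp12 at 0.381. For Cyp7b1, with a spread of 1.12, they were C8b at 0.373, Serpina3k at 0.383 and Mup10 at 0.385. For Nr0b2, with a spread of 0.472, Gon4l was nearest at 0.267, followed by Plpp5 and Surf2. For Cyp7a1, with a spread of 0.750, Exd1 was nearest at 0.466, with Fam222a and Nos1ap next.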

How the data were processed

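Total RNA of mouse liver (16 libraries) went through Ribo-Zero removal of ribosomal RNA, and reads were aligned with TopHat2 and quantified with Cuffdiff, per the labels' protocols, on mm10, per the submitters' processing notes. The sources used here do not give tool versions or the strand setting, so reads of overlapping and antisense genes cannot be told apart. The name of the deposited table speaks of both gene counts and FPKM. Its values were taken here as the authors' estimated counts, since library totals differ and 32.8% to 37.9% of a library's values are exactly whole (tolerance 0). Were they another unit, the CPM, RPKM and count tests here would not apply. The smallest row total is 10.

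Estimated counts were rounded. edgeR 4.0.16 (R 4.3.3) kept genes with filterByExpr over the 4 groups and TMM scaling, and 1 robust quasi-likelihood model with a mean per group was fitted to all 16 libraries (12 residual degrees of freedom). Two-sided tests were adjusted by Benjamini-Hochberg over the 16830 genes, with a threshold of 0.05, in 5 comparisons. SE is the absolute log2 fold change over the square root of F. Log2 CPM used a prior count of 2. RPKM used the union of exons in GENCODE M21. Ratios were tested by exact permutation (scipy 1.17.1). Alternatives were DESeq2 1.42.0, limma voom 3.58.1, other scalings and filters, fits of the groups compared alone, and fits without single libraries. The last include libraries outside the groups compared, which can change a comparison of genes only through the shared filter, scaling and spread. The script was tested on simulated data.

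Library numbers are in accession order and do not pair libraries. The members and gene lists were chosen with earlier results of these data known. Named were all 10 genes, from each list up to 4 genes with the smallest p for diet in wild type and up to 2 in either knockout comparison (most are given as counts), and the 3 nearest genes by pattern. Intervals are at 95% and cover the spread between libraries.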

Additional observations from a re-analysis of the deposited data

Results flagged for a closer look

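In 36 groups of 4 or 5 libraries, covering the levels of the 10 genes and both ratios, 2 held a library far from the others by Dixon's criterion, and chance alone gives about 5% of groups. Akr1d1 in knockout on chow had 175 CPM in library 3 against 134 to 138 in the others, a gap of 0.901 of the group's range (limit 0.829 for 4 libraries). The log2 ratio of Cyp8b1 over Cyp7a1 in wild type on high-fat diet was 2.16 in library 1 against 1.44 to 1.52 in the others, a gap of 0.888 of the range.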

How the results depend on the processing

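Over 50 results on single genes, 1181 of 1240 recomputed values kept direction and side of the threshold, 15 lost a call, 3 gained one and 41 changed sign, the last in 10 results of which 0 were called. These values include fits without a library outside the groups compared. The calls lost or gained stand beside their genes. In the diet comparisons, 5 to 7 of the 10 genes passed as lower in wild type and 3 to 5 in the knockout, over 25 alternatives each. The number passing as higher in the knockout was 0 to 1 when single libraries were left out. No paired analysis was possible because the labels give no replicate numbers shared between groups.

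Counts over all genes were small in the knockout comparisons. On high-fat diet 1 gene passed, 3 with no filter, 7 with DESeq2, 2 with limma voom, 4 with the compared groups alone and 1 to 4 without single libraries. On chow 1 passed, 2 with DESeq2, 0 with voom, 0 with the compared groups alone and 0 to 3 without single libraries. For the difference 0 passed, 8 with DESeq2 and 0 to 4 without single libraries. The causes were not tested.

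Changes of sign, in log2, were as follows for the knockout effect. On high-fat diet Nr1h4 was 0.00230 with voom and 0.00337 without both libraries that lay apart, and -0.0778 to 0.0737 without single libraries, and Hsd3b7 was -0.0746 to 0.0516. On chow without both libraries Cyp7a1 was -0.0786, Cyp8b1 -0.00842 and Akr1d1 0.0545, and with voom Cyp7a1 was -0.176. On chow without single libraries Cyp7a1 was -0.357 to 0.376, Cyp8b1 -0.0666 to 0.255, Akr1d1 -0.186 to 0.0584, Hsd3b7 -0.0626 to 0.0985 and Slc27a5 -0.0310 to 0.0711. For the difference between diets Cyp7a1 was -0.660 to 0.182, Cyp27a1 -0.0737 to 0.0457 and Hsd3b7 -0.104 to 0.0574. The ratio of Cyp8b1 to Cyp7a1 was -0.255 to 0.474 on high-fat diet and -0.149 to 0.469 on chow, and that of Cyp7a1 to Cyp7b1 on chow -0.00915 to 0.956. The causes were not tested.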
